A study of Mus musculus with 43 samples.

Results

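The genes of cellular iron uptake, storage and sensing are described here by the EKLF-bound regions called at them in mouse fetal liver. The group was set by name: Tfrc, Tfr2, Steap3, Slc11a2, Slc40a1, Fth1, Ftl1, Ncoa4, Aco1 and Ireb2. All 10 were found among the 21523 protein-coding genes kept from a RefSeq gene table of the mm10 mouse genome build. A region was counted for a gene when its centre lay in the gene body or within 10 kb of either end. By that rule the 10 genes held 19 of the 15564 regions called in Nan/+ livers and 21 of the 9181 called in WT livers.

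Red cell precursors take up more iron than other cells do, because most of it goes into haem for haemoglobin. Iron-loaded transferrin binds the transferrin receptor and is taken into endosomes, where a reductase frees the iron for a transporter that carries it into the cytosol. Iron that is not used at once is held in ferritin or exported through ferroportin, and iron regulatory proteins adjust the mRNAs of the receptor and of ferritin to the iron level. EKLF, encoded by Klf1, is a zinc-finger transcription factor of red cell precursors that binds CACCC-type DNA sequences. Nan (neonatal anaemia) is a Klf1 allele with a changed amino acid in a zinc finger that contacts DNA.

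EKLF was mapped by chromatin immunoprecipitation and sequencing (ChIP-seq) with antibody 7B2a in fetal livers at embryonic day E13.5. The Nan/+ embryos carry the Klf1-Nan allele and a wild-type allele, and the WT embryos are the wild type of the same Nan strain. Each genotype had 3 ChIP libraries, given as biological replicates from littermates, and the authors deposited 1 list of called regions per genotype. The tissue is labelled primary erythroid, but the protocol describes dispersed livers and names no sort.

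The ChIP libraries held 72023512 to 100763687 tags in Nan/+ and 74140385 to 103170594 in WT, per the file headers. The lists give positions alone. They hold no strength per region and no value per replicate, so no difference between Nan/+ and WT below has a replicate check or a test, and a region missing from a list is one that was not called there. The lists were also called with different settings, with a peak size of 175 bp in Nan/+ and 125 bp in WT, so widths are set here against their own list. A smaller number of cells of a type and less EKLF bound per cell cannot be told apart in these livers. The lists do not separate the product of the Nan allele from that of the wild-type allele. All 6 erythroid marker genes had a region in each list. Of 5 macrophage markers 1 had a region in Nan/+ and 1 in WT, and of 5 hepatoblast markers 2 had one in Nan/+ and 3 in WT. Over all protein-coding genes the shares were 37.5% in Nan/+ and 33.5% in WT. The lists hold no expression, so these few marker counts do not tell which cells the livers held.

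Of the 10 iron genes, 7 had an EKLF region in Nan/+, where 37.5% of all protein-coding genes had one, and 7 had an EKLF region in WT, where the share was 33.5%. The genes with regions in both lists were Tfrc, Slc11a2, Fth1, Ftl1 and Ncoa4, which makes 5, against 23.5% of all genes. Tfr2 and Ireb2 had regions in Nan/+ alone, as did 14.1% of all genes. Steap3 and Slc40a1 had regions in WT alone, as did 10.1% of all genes. Aco1 had none in either list, where 10245 of the 21523 genes had a region in at least 1 list. The 10 genes had a mean of 1.9 regions each in Nan/+ and 2.1 in WT, where all genes had means of 0.816 in Nan/+ and 0.588 in WT. The 10 genes are somewhat longer than most, with a median body of 21.9 kb against 17.4 kb over all genes, and a longer gene has a wider window in which a region can fall.

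**Figure D1:**
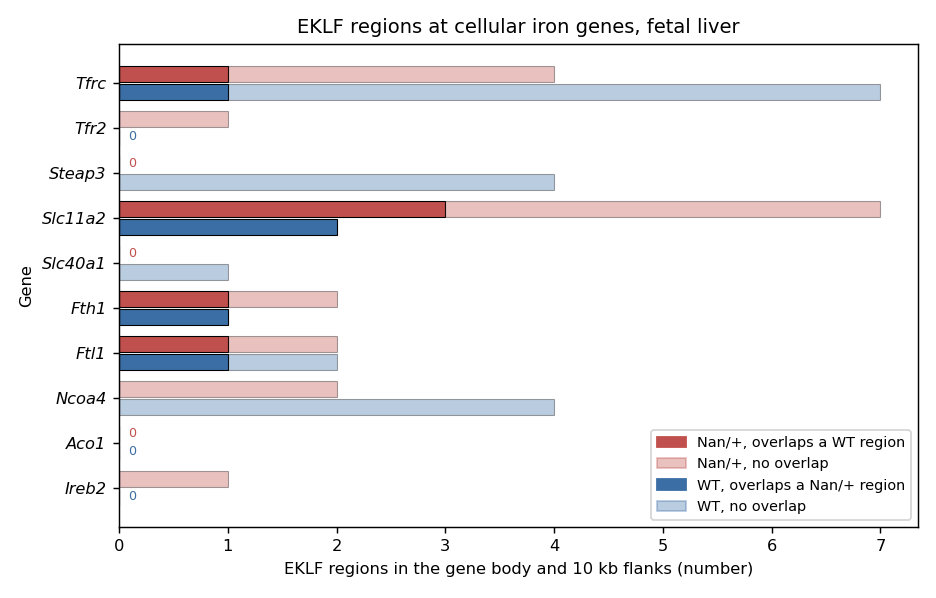
Number of EKLF regions per gene in the gene body and 10 kb flanks, with Nan/+ above WT for each gene and regions that overlap the other list in the darker shade. Tfrc has 4 Nan/+ and 7 WT regions, Slc11a2 has 7 and 2, and Steap3 has none in Nan/+ and 4 in WT.

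Counts leaned both ways within the group. Tfr2, Slc11a2, Fth1 and Ireb2 had more regions in Nan/+ than in WT, which was true of 48.4% of the genes with a region in either list. Tfrc, Steap3, Slc40a1 and Ncoa4 had more in WT, which was true of 32.0%. Ftl1 had equal counts. The differences at Ncoa4 and Ireb2 rest on regions nearest to other genes, Timm23 for the WT regions of Ncoa4 and Hykk for the Nan/+ region of Ireb2. Positions mostly differed between the lists, also at genes with regions in both. In Nan/+ 6 of the 19 regions overlapped a WT region by at least 1 bp (31.6%, exact 95% binomial interval 12.6 to 56.6), against 14.7% of the whole Nan/+ list. In the other direction 5 of the 21 WT regions overlapped a Nan/+ region (23.8%, interval 8.22 to 47.2), against 24.5% of the whole WT list. These intervals cover counting error only and take in both background shares, which is not a test. They also treat regions as independent, although Slc11a2 alone held 7 of the Nan/+ regions and 3 of the overlapping ones. Of those 3, 2 met the same WT region. The overlapping regions lay at Tfrc, Slc11a2, Fth1 and Ftl1, so that 4 of the 10 genes had one, against 13.3% of all genes.

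Tfrc encodes transferrin receptor 1, the receptor through which red cell precursors take up transferrin. Its 250 bases before the first of its 2 listed starts (chr16:32608646-32608895, plus strand, RefSeq GRCm38.p6) are shown because none of them lay inside a Nan/+ region and all lay inside the widest WT region at any of these genes. Capitals mark matches to CCNCNCCC, the short form of the CACCC-type sequence that EKLF binds, on either strand, with overlapping matches run together.
Tfrc start 1: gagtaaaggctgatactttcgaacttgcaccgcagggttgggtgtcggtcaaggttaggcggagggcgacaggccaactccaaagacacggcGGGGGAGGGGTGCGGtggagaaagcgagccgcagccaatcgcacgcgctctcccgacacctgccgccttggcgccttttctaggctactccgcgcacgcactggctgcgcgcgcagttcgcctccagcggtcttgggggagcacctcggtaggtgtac
The stretch holds 3 overlapping matches, all on the minus strand.

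The gene (chr16:32608896-32632794) had 4 Nan/+ regions and 7 WT regions, more than 95.2% of all protein-coding genes had in Nan/+ and more than 99.5% had in WT. Gene length is not allowed for in these ranks, and Tfrc is 23.9 kb long against a median of 17.4 kb. In Nan/+ the region nearest the start was chr16:32610129-32610355, 227 bp wide, with its centre 1.35 kb into the gene. In WT the region chr16:32607688-32609461 was 1774 bp wide, wider than 99.6% of the WT list, and held both listed starts, with 667 bp between it and that Nan/+ region. The starts of Tfrc were thus outside the called regions in Nan/+ and inside one in WT. A narrow WT region of 239 bp, chr16:32610539-32610777, lay 183 bp from the first Nan/+ region without meeting it.

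Further into Tfrc the lists met at 1 place. The Nan/+ region chr16:32612085-32612336 and the WT region chr16:32612149-32612429 shared 188 bp, with centres 3.31 kb into the gene for the Nan/+ region and 3.39 kb for the WT region. Of the other Nan/+ regions, chr16:32612751-32612926 lay 321 bp from that WT region and chr16:32624460-32624635 lay 1154 bp from another, both at the minimum width of the Nan/+ list, 176 bp. WT had 4 regions centred between 13.85 and 21.42 kb into the gene, 539 to 1185 bp wide, and none of them overlapped a Nan/+ region. In all, called regions covered 831 bp at Tfrc in Nan/+ and 5529 bp in WT. The whole lists also differed in median width, 176 bp in Nan/+ and 396 bp in WT, and the part of this in the cover was not tested.

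Tfr2 encodes transferrin receptor 2, which is expressed in liver cells and red cell precursors and takes part in sensing the iron carried by transferrin. It had a single Nan/+ region, chr5:137589643-137589818, which was 176 bp wide, was centred 1.65 kb beyond the end of the gene (chr5:137569822-137588081) and also fell in the window of Mospd3. WT had none in the window, and the nearest WT region was centred 13.0 kb from the gene. The bases before the first of its 3 listed starts (chr5:137569590-137569839, plus strand) are shown as a contrast to Tfrc, because they hold 4 separate matches to CCNCNCCC and lay in no called region of either list.
Tfr2 start 1: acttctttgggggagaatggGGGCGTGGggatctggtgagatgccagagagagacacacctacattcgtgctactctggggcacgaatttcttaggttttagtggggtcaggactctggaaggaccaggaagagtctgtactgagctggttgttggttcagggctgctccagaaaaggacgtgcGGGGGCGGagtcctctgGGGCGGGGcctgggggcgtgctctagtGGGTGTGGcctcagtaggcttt
The match nearest the start, which begins at position -22, is the only match in the listed promoters of these genes to CCACACCC, the CACCC box of the adult beta-globin promoter, read on the minus strand.

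**Figure D2:**
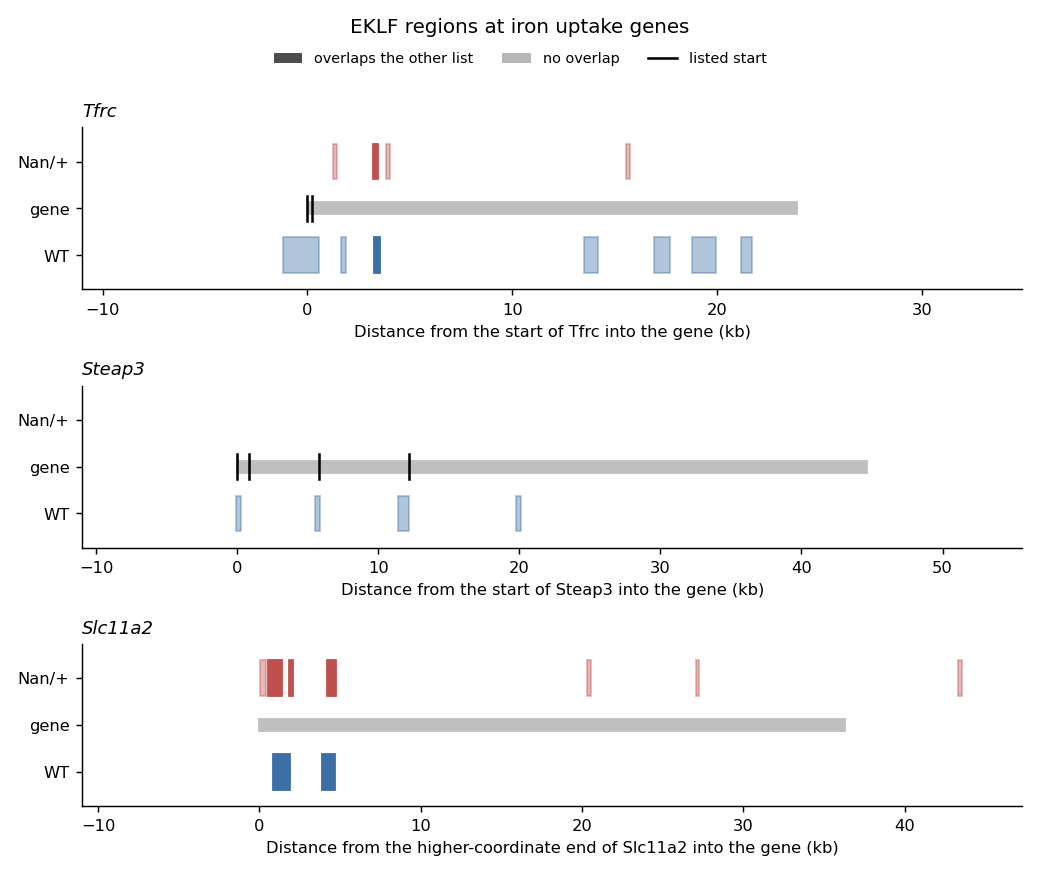
EKLF regions along Tfrc, Steap3 and Slc11a2, drawn to scale in kb from the start of the gene (from the higher-coordinate end for Slc11a2, whose strand was not listed), with Nan/+ above the gene bar and WT below it and darker boxes for regions that overlap the other list. In the first kilobase of Tfrc and Steap3 there is no Nan/+ region and there are WT regions, whereas at Slc11a2 both lists have regions near the same end.

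Steap3 encodes the reductase that turns endosomal ferric iron into ferrous iron. It had no Nan/+ region in its window, and the nearest one, chr1:120287270-120287445, was centred 16.3 kb from the gene (chr1:120226414-120271081, minus strand). In WT it had 4 regions, more than 97.3% of all genes. That rank takes no account of length, and Steap3 is 44.7 kb long, where the median over all genes is 17.4 kb. The region chr1:120270779-120271180 held the first of its 4 listed starts, chr1:120265214-120265579 held the third, and chr1:120258899-120259715, at 817 bp wider than 90.3% of the WT list, had its edge 21 bp from the fourth. The WT regions of Steap3 were thus at or beside 3 of its 4 listed starts, and a further region, chr1:120250995-120251308, was centred 19.93 kb into the gene. The bases before the first start (chr1:120271081-120271330, minus strand) are shown because the 100 bases nearest the start lay in that WT region.
Steap3 start 1: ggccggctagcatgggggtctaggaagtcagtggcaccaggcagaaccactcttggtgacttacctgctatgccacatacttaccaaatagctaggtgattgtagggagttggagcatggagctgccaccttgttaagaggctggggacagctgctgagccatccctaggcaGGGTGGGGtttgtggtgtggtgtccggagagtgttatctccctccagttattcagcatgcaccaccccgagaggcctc
The 1 match to CCNCNCCC begins at position -78, counted from the start, within the part that the WT region covers.

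Slc11a2 encodes DMT1, the transporter that carries ferrous iron out of the endosome. It had 7 Nan/+ regions, more than 98.5% of all genes, and 2 WT regions, more than 87.1%. Its length of 36.3 kb, against a median of 17.4 kb over all genes, is not allowed for in these ranks. Both WT regions overlapped Nan/+ regions, and they lay toward the higher-coordinate end of the gene (chr15:100387898-100424209). The Nan/+ region chr15:100419489-100420011 shared 460 bp with the WT region chr15:100419552-100420341. The Nan/+ regions chr15:100422136-100422371 and chr15:100422829-100423648 both met the WT region chr15:100422329-100423344, 1016 bp wide, over 559 bp in all. At 820 bp the second of these Nan/+ regions was the widest at any of the 10 genes and wider than 98.0% of the Nan/+ list.

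The other 4 Nan/+ regions of Slc11a2 had no WT counterpart. At chr15:100423794-100424196 a Nan/+ region of 403 bp was centred 214 bp inside the higher-coordinate end, and 449 bp separated its edge from the nearest WT region. Deeper in the gene, chr15:100396960-100397135 and chr15:100403671-100403915 were 22416 and 15636 bp from any WT region. The last, chr15:100380658-100380880, was centred 7.13 kb outside the lower-coordinate end, inside Higd1c and Methig1. Slc11a2 was the member with the most Nan/+ regions, and called regions there covered 2626 bp in Nan/+ and 1806 bp in WT. These 2 sums come from lists of unlike peak size and median width.

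Slc40a1 encodes ferroportin, the exporter that passes iron out of cells. It had no Nan/+ region in its window, and the nearest was centred 927 kb away. In WT it had 1 region, chr1:45925404-45925739, 336 bp wide, whose centre lay 960 bp inside the higher-coordinate end of the gene (chr1:45908070-45926532). That width was below the WT list's median of 396 bp.

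Fth1 and Ftl1 encode the heavy and light subunits of ferritin, of which the heavy subunit oxidises the iron that enters the shell. Both genes had regions in both lists, and at each a Nan/+ region lay wholly within a WT region. For Fth1 (chr19:9980600-9985111) these were chr19:9982459-9982959 in Nan/+, 501 bp, and chr19:9982340-9983138 in WT, 799 bp, and both held the second listed start, 2046 bp into the gene. It was the only listed start of the 10 genes that lay in a region of both lists. A second Nan/+ region at Fth1, chr19:9982075-9982310, ended 29 bp short of the WT region, the smallest gap among the Nan/+ regions that did not overlap.

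The bases before these ferritin starts are shown because the regions differ over them: 187 of 250 lay in a Nan/+ region and all in a WT region at Fth1 (chr19:9982396-9982645, plus strand), whereas none lay in a Nan/+ region and all in a WT region at Ftl1 (chr7:45459887-45460136, minus strand).
Fth1 start 2: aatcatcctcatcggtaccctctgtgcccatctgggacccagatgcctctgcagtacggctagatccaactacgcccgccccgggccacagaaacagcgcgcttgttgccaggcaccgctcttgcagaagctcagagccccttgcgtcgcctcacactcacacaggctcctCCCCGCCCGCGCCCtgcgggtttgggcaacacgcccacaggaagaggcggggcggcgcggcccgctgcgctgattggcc
Ftl1 start 1: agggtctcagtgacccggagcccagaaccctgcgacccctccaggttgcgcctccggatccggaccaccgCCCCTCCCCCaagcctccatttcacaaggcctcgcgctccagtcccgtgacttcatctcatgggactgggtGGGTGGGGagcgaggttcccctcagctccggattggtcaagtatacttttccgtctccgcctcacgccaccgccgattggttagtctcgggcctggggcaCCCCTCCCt
Each holds matches to CCNCNCCC, 2 for Fth1 and 4 for Ftl1, of which the closest to a start begins at position -9 of Ftl1.

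At Ftl1 (chr7:45457944-45459886, minus strand) the start lay in no Nan/+ region and in the WT region chr7:45459667-45460269, 603 bp wide. The nearest Nan/+ region, chr7:45460753-45461235, 483 bp wide and centred 1.11 kb before the start, lay wholly inside the second WT region, chr7:45460675-45461378. Bax was the nearest gene to both, so these regions are not Ftl1's alone. The remaining Nan/+ region, chr7:45457551-45457726, was 176 bp wide and centred 306 bp beyond the far end of Ftl1. All 4 regions also fell in the windows of Bax and Gys1.

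**Figure D3:**
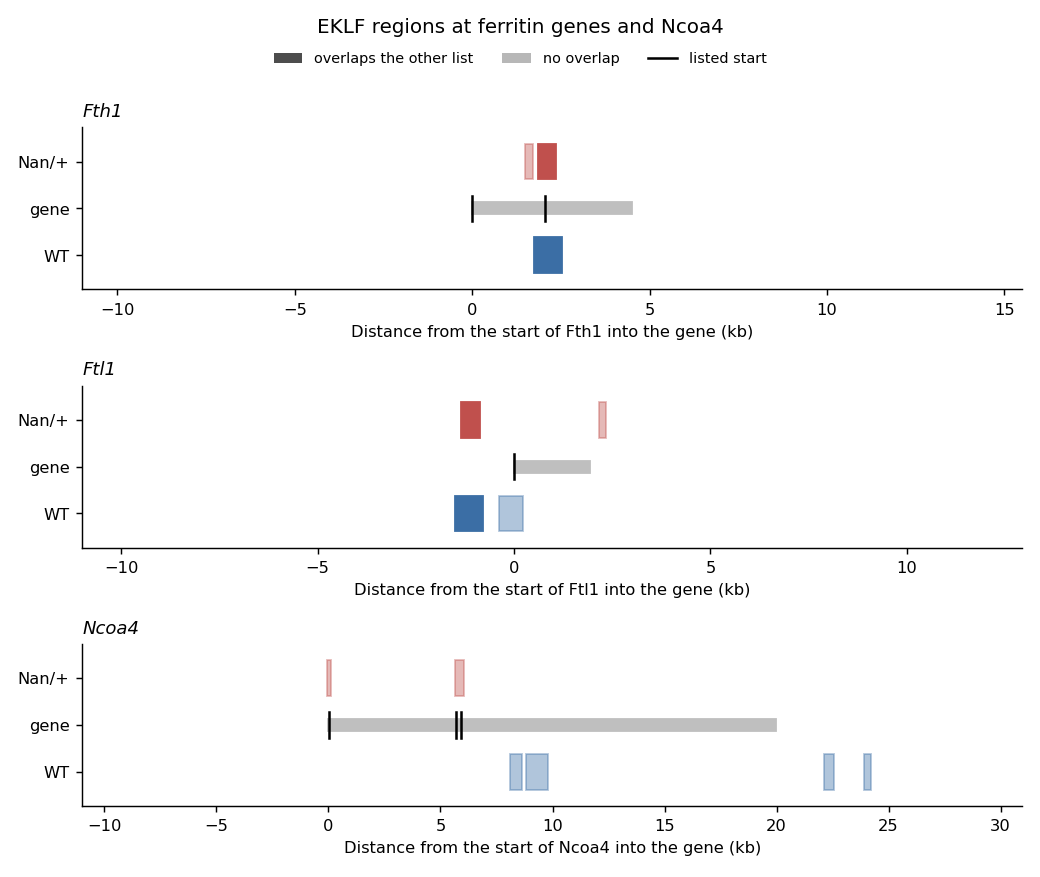
EKLF regions along Fth1, Ftl1 and Ncoa4, drawn to scale in kb from the start of the gene, with Nan/+ above the gene bar and WT below it and darker boxes for regions that overlap the other list. At Fth1 both lists have a region over the second listed start, at Ftl1 no Nan/+ region and 1 WT region lies over the start, and at Ncoa4 the Nan/+ regions lie over listed starts and the WT regions lie beyond them.

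Ncoa4 encodes the receptor that carries ferritin to the lysosome, where its iron is released. Among these iron genes with regions in both lists it was the 1 gene at which none overlapped. Of all genes 23.5% had regions in both lists and 13.3% had a WT region that overlapped a Nan/+ region, so such genes are not rare. In Nan/+ the region chr14:32159799-32159974, 176 bp, held the first of its 3 listed starts, and chr14:32165547-32165909, 363 bp and wider than 86.4% of the Nan/+ list, held the other two. In WT the regions chr14:32167991-32168528 and chr14:32168701-32169678 were centred 8.38 and 9.31 kb into the gene (chr14:32159879-32179855), with 2081 bp between the first of them and a Nan/+ region. The 978 bp of the second made it wider than 94.7% of the WT list. The other 2 WT regions, chr14:32181999-32182430 and chr14:32183761-32184113, had their centres inside Timm23, the next gene. In its own body Ncoa4 had 2 regions in each list. All listed starts of Ncoa4 were thus inside Nan/+ regions and outside WT regions, the opposite of Tfrc and Ftl1. The bases before the third start (chr14:32165539-32165788, plus strand) are shown because 242 of 250 lay in a Nan/+ region and none in a WT region.
Ncoa4 start 3: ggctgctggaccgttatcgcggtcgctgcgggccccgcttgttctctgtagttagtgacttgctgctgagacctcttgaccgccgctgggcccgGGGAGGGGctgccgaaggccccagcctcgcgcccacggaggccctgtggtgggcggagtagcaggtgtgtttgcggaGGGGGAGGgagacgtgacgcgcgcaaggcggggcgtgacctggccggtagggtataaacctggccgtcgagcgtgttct
The sequence holds 2 matches to CCNCNCCC. The bases before the first and second starts of Ncoa4, of which 88 and 39 lay in Nan/+ regions, hold none.

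Aco1 and Ireb2 encode the iron regulatory proteins IRP1 and IRP2, which bind iron-responsive elements in mRNAs when iron is low. Aco1 (chr4:40143265-40199009) had no region in its window in either list, and the nearest was centred 175 kb away in Nan/+ and 80.4 kb away in WT. Ireb2 (chr9:54862658-54912534) had 1 Nan/+ region, chr9:54917172-54917403, 232 bp wide and centred 4.75 kb beyond the end of the gene, with Hykk as its nearest gene. The nearest WT region was centred 128 kb from Ireb2. Neither sensor gene had a called region in its body. Lacking a region is common, as only 10245 of the 21523 genes had one in either list, flanks included. The share of all genes with a region in the body was not counted.

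Across the group 14 of 19 Nan/+ regions were centred inside the gene, against 61.0% of all pairs of a gene and a Nan/+ region in its window. In WT the count was 16 of 21, against 47.4% of all such pairs. Within 1 kb of a gene end were 4 Nan/+ regions, against 22.7% of all pairs, and 4 WT regions, against 40.0%. Starts were listed for 8 of the 10 genes, and not for Slc11a2 or Slc40a1. A listed start lay inside a Nan/+ region at 2 of these 8 genes (Fth1 and Ncoa4), against 10.3% of all genes with a listed start. The count in WT was 4 of 8 (Tfrc, Steap3, Fth1 and Ftl1), against 18.2%. These 8 genes have more starts per gene, 17 in all, where the table holds 21020 promoters and 17274 genes have a listed start. A gene with more starts has more places where a region can hold one, and the part of this in the counts was not tested. Of the regions that did not overlap, 4 of 13 in Nan/+ lay within 1 kb of a WT region, against 6.51% of such regions over the whole Nan/+ list. In WT 3 of 16 lay within 1 kb of a Nan/+ region, against 12.4% over the whole WT list. Most were thus farther away, with median gaps of 2081 bp in Nan/+ and 4211 bp in WT, where those of the whole lists were 29662 bp in Nan/+ and 11520 bp in WT.

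Most regions at the iron genes were wider than the median of their own list. In Nan/+ 13 of 19 were wider, with a median of 236 bp against 176 bp over the list, and 6 of 19 had the minimum width of 176 bp, against 54.5% of the list. In WT the median was 603 bp against 396 bp, and 15 of 21 were wider than the list's median. The overlapping regions had medians of 492 bp in Nan/+ and 790 bp in WT, and the others 223 bp in Nan/+ and 538.5 bp in WT, although a wider region also overlaps more readily. Called regions at the 10 genes covered 5.8 kb in Nan/+ and 14.0 kb in WT, and those of the whole lists 4.05 Mb in Nan/+ and 4.27 Mb in WT. The lists differ in peak size and in median width, and the part of this in the cover at these genes was not tested.

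**Figure D4:**
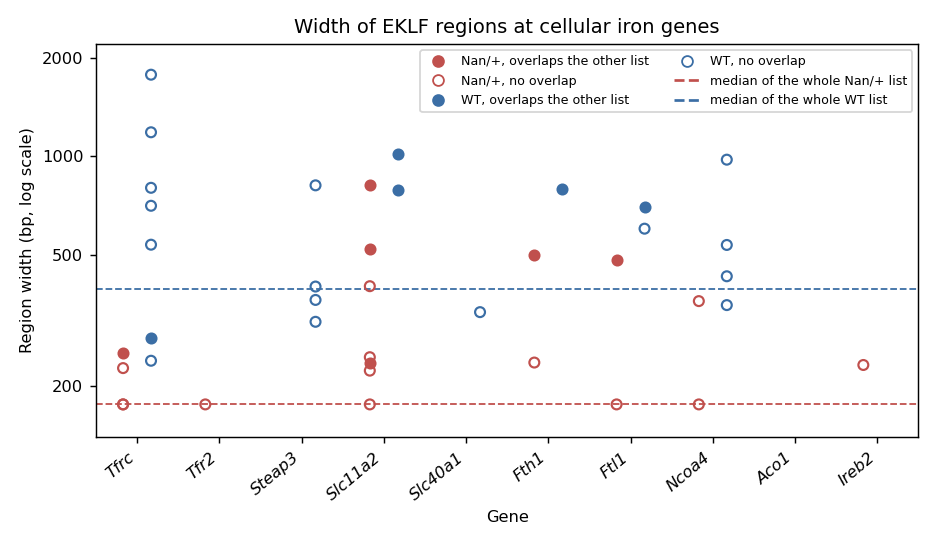
Width of each EKLF region at the 10 genes in bp on a log scale, with Nan/+ left of WT for each gene, filled points for regions that overlap the other list and dashed lines at the median of each whole list. Of the Nan/+ points, 6 lie on the Nan/+ median of 176 bp, where points of 1 gene can coincide, and the highest WT point is the region over the starts of Tfrc, at 1774 bp.

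The 8 genes with listed starts have 17 promoter windows, each of 250 bases before and 50 after a start. CCNCNCCC, searched on both strands, was in 13 of these 17, against 57.1% of the 21020 promoters in the table. CCACACCC was in 1, against 3.65%. NGATAA, which is GATAA after any base, was in 6 of 17, against 22.5%. The usual site of the GATA factors, which work beside EKLF in red cells, has A or T before GATA. Only the third window of Tfr2 and the first of Steap3 had that, and the other windows with NGATAA had C or G there. The share of all promoters with the usual site was not counted. The CCAAT box was in 5 of 17, against 38.5%. The E-box CANNTG was in 8 of 17, against 69.0%. Windows of neighbouring starts share bases, so the 17 are not independent. A match is a description of the letters and not a bound site, and 4 windows had no CCNCNCCC, among them the third of Steap3, whose upstream bases all lay in a WT region.

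Other genes of iron handling were counted in the same way. Of 76 such genes, 46 had a region in Nan/+, 47 in WT and 39 in both, where the shares of all genes were 37.5%, 33.5% and 23.5%. With regions in Nan/+ alone there were 7 of the 76, beside 14.1% of all genes, and with regions in WT alone 8, beside 10.1%. An overlapping region was found at 24, beside 13.3% of all genes. More Nan/+ than WT regions were called at 26 of the genes with a region and more WT than Nan/+ regions at 15, beside 48.4% and 32.0% of all genes with a region. Of 15 mitochondrial iron and iron-sulfur genes, 13 had a region in Nan/+, 13 in WT and 12 in both. Abcb10, a mitochondrial transporter that haem synthesis needs, had 6 Nan/+ and 11 WT regions. Lyrm4, a partner of the enzyme that frees sulfur for iron-sulfur clusters, had 14 Nan/+ and 2 WT regions. It is a long gene of 138561 bp, where the median over all genes is 17.4 kb, so its window is wide.

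**Figure D5:**
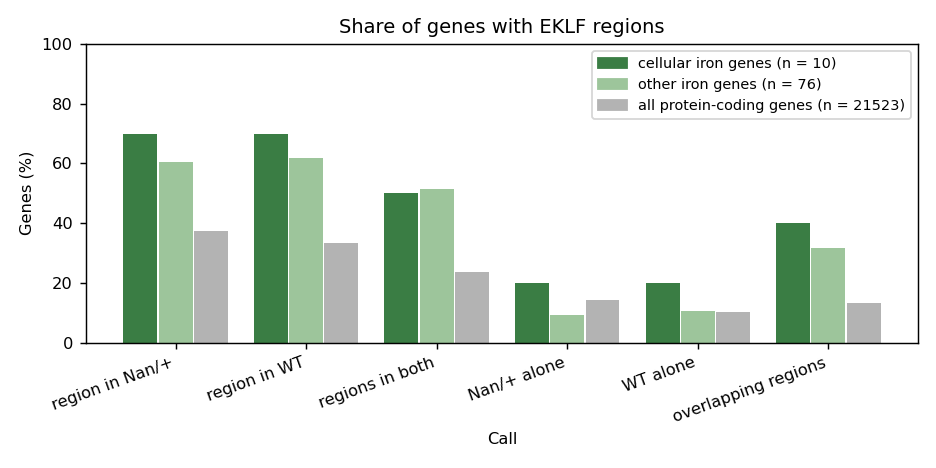
Percentage of genes with EKLF regions by call, for the 10 cellular iron genes, the 76 other iron genes and all 21523 protein-coding genes. The cellular iron genes reach 7 of 10 in each list, beside 37.5% of all genes in Nan/+ and 33.5% in WT.

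Genes that move the transferrin receptor through the cell had a region in Nan/+ in 11 of 14 cases and in WT in 9 of 14. Over all protein-coding genes the shares were 37.5% in Nan/+ and 33.5% in WT. Exoc6, an exocyst subunit that recycling of the receptor needs in mouse red cells, had 6 Nan/+ and 2 WT regions, of which 1 in each list overlapped. Picalm, a clathrin adaptor, had 17 Nan/+ and 13 WT regions, with 3 overlapping in each list. Exoc6 and Picalm are long genes, of 147290 and 79256 bp, with wide windows. Rab11a, a GTPase of recycling endosomes, had 4 Nan/+ regions and 1 WT region. Among genes that control the iron regulatory proteins or ferritin, 6 of 11 had a region in Nan/+ and 9 of 11 in WT. The shares of all genes beside these counts are again 37.5% and 33.5%. Cisd1, which encodes an iron-sulfur protein of the outer mitochondrial membrane, had none in Nan/+ and 2 in WT. Cisd2 and Mms19 each had 3 Nan/+ regions and 1 WT region.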

How the data were processed

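EKLF ChIP regions were taken from 1 deposited list per genotype. Per the file headers, the authors called regions with HOMER from 3 ChIP libraries of each genotype against 2 distinct input libraries that filled 3 places. Per the file headers, the authors asked in both lists for a q-value of 0.01 and at least 4-fold enrichment, and then for a DESeq2 false discovery rate of 0.01 at a log2 change of 2. The peak size was 175 bp and the minimum distance 300 bp in Nan/+, against 125 bp and 250 bp in WT, per the file headers. The score column that the authors deposited is 1 in every row and was used for nothing. The submitters' processing notes name the mm10 build, bcl2fastq 2.17, Bowtie2 2.1, SAMtools 1.1, deepTools 3.5 and HOMER.

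Genes came from a RefSeq table of GRCm38.p6, the assembly of mm10. Of 21900 protein-coding genes, 269 on Y, mitochondrial or unplaced sequence and 108 with a start below 3 Mb, which holds entries of alternate loci, were left out. Starts, strands and promoter sequences came from a RefSeq promoter table of the same assembly, which matched 8 of the 10 genes, and strand was used only there. Positions are counted from 1. A region can belong to several genes. No genome sequence was used, so motifs inside the regions were not analysed here. Counts, distances and overlaps were computed in Python 3.11.15 with pandas 2.3.3 and SciPy 1.17.1, and the counting was tested on simulated regions.

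With 1 list per genotype no test was made, and 95% intervals are exact binomial (Clopper-Pearson). Samples of the other assays were not used here. The 10 genes, the other gene lists and the motifs were chosen with earlier results of these data known. The other genes named are those nearest a counted region and, of each list of iron genes, up to 3 with the largest difference between their 2 counts. A gene that this rule names is not reported here. Alternatives changed the flanks, the assignment of regions, the width and the overlap rule.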

Additional observations from a re-analysis of the deposited data

How the results depend on the processing

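Of 42 values recomputed under other windows, assignments, widths and overlap rules, 35 stayed within 1.5 times the reported count. With flanks of 50 kb, 13 Nan/+ regions overlapped a WT region and 12 WT regions overlapped a Nan/+ region, in place of 6 and 5, among 42 Nan/+ and 38 WT regions at these genes. With the gene body alone, 4 of the 10 genes had a Nan/+ region in place of 7. Counting regions within 1 kb of each other as overlapping gave 10 Nan/+ and 8 WT regions. Under the other settings 6 or 7 genes had a Nan/+ region and 7 had a WT region, apart from 8 in each list with the 50 kb flanks and 6 in WT with the gene body alone. The shares of all genes and of the whole lists given above were computed under the main settings only. They are therefore not a background for the counts in this paragraph. No paired analysis was possible because the replicates of a genotype were merged into 1 list before deposit. The lists carry no strength, so a region just below the calling threshold cannot be seen, and the depth behind a single region is not known.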

Other observations

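Of 12 genes of systemic iron control 4 had a region in Nan/+ and 4 in WT, close to the 37.5% of all genes in Nan/+ and the 33.5% in WT. Erfe, which encodes erythroferrone, the hormone by which red cell precursors lower hepcidin, had 3 Nan/+ regions and none in WT. Id1, a target of BMP signalling, had 2 Nan/+ regions and none in WT, whereas Tmprss6, a protease that lowers hepcidin in liver cells, had none in Nan/+ and 2 in WT. Hamp, which encodes hepcidin, had none in either list. Of 18 other iron transporters and oxidoreductases 7 had a region in Nan/+, 7 in WT and 6 in both, the first counts again close to those shares of all genes. Hmox1, the haem oxygenase, and Lcn2, a siderophore-binding protein, each had 2 Nan/+ regions and 1 WT region, and Mcoln1, a channel of the lysosome, had none in Nan/+ and 2 in WT.

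Of 6 other genes whose mRNAs carry iron-responsive elements, 5 had a region in Nan/+ and 5 in WT. The shares of all genes were 37.5% in Nan/+ and 33.5% in WT, and long genes have wider windows. Cdc42bpa, a long gene of 205528 bp, had 11 Nan/+ regions and 1 WT region, none of them overlapping. Cdc14a, also long at 156189 bp, had 1 Nan/+ region, which overlapped 1 of its 3 WT regions. These counts have no replicate check.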
